A study of Homo sapiens with 48 samples.

Results

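The 5 genes EIF2B1 to EIF2B5, which encode the subunits of the translation initiation factor eIF2B, were followed through a ribosome profiling series in SW480 cells. They were taken by gene symbol alone, and all 5 were present among 11145 genes with ribosome-protected fragments (RPFs) and 11947 genes with total cytoplasmic RNA. SW480 is a human colorectal cancer line with mutant APC. Pools of SW480 cells carried a doxycycline (DOX) inducible hairpin delivered by lentivirus: a control hairpin (shCTRL), a hairpin to EIF2B1 (shEIF2B1) or a hairpin to EIF2B4 (shEIF2B4). Each of these 3 lines received DMSO (-DOX) or 1 µg/ml DOX over 5 days (+DOX). The experiment was repeated in 4 separate weeks, which gave 24 lysates, and RPFs and total RNA were sequenced from each, 48 libraries in all. Each target had a single inducible line, and the lines had been transduced separately, so the hairpin and the line cannot be told apart.

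eIF2B is the guanine nucleotide exchange factor that recharges eIF2 with GTP, so that eIF2 can carry the initiator methionyl-tRNA to the ribosome. The complex is a decamer that holds a pair of each subunit: eIF2Bε (EIF2B5) carries the catalytic domain and forms a subcomplex with eIF2Bγ (EIF2B3), while eIF2Bα (EIF2B1), eIF2Bβ (EIF2B2) and eIF2Bδ (EIF2B4) form the regulatory core that senses phosphorylated eIF2α. The eIF2Bα dimer joins the tetramers of the other four. When eIF2 kinases phosphorylate eIF2α, eIF2B is inhibited and the integrated stress response (ISR) is switched on, with preferential translation of ATF4. The question here was whether the mRNA level and the ribosome occupancy of the untargeted subunits changed when a partner was depleted.

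The subunits are encoded at separate loci. On GRCh38, in the GENCODE v29 annotation, EIF2B1 lies at chr12:123620406-123633766 on the minus strand and has a coding sequence of 305 codons over a transcript of 9 exons. EIF2B2 lies at chr14:75002911-75012366 on the plus strand, with 351 codons and 8 exons. EIF2B3 lies at chr1:44850522-44986722 on the minus strand, and the transcript used by the authors has 412 codons and 10 exons. EIF2B4 lies at chr2:27364352-27370486 on the minus strand, with 523 codons and 13 exons. EIF2B5 lies at chr3:184135038-184146112 on the plus strand, with 721 codons and 16 exons. RefSeq start sites on GRCh38.p14 gave 6 promoter windows of 300 bases (250 before and 50 after the start), 2 of them for EIF2B4. The ETS-type motif CGGAAGT, searched on both strands, was found in 3 of these 6 windows and in 6.829% of all 35116 promoter windows. The GC box GGGCGG was found in 4 of 6, against 44.954% of all windows, and the element TGATGCAA, of the kind bound by ATF4, in 0 of 6 against 0.866%. A match describes letters only, and no library here measured binding at a promoter. The 3 windows that held the ETS-type motif are shown because this was the only motif searched that was uncommon among all promoters and shared by several subunits; capitals mark it on either strand, and each window is printed along the strand of the gene, chr12:123633637-123633936 (minus), chr14:75002671-75002970 (plus) and chr3:184135108-184135407 (plus).
EIF2B1: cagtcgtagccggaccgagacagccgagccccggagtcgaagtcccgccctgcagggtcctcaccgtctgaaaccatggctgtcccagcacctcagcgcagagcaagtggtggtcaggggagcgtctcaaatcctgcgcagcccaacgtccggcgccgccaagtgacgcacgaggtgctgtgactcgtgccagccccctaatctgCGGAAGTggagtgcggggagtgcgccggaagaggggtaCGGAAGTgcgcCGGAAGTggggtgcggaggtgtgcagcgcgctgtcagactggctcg
EIF2B2: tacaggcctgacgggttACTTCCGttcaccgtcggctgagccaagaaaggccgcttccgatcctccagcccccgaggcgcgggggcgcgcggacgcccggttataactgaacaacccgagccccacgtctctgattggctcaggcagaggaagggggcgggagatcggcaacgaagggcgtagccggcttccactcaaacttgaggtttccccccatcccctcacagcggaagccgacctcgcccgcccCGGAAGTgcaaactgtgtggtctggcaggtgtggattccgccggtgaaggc
EIF2B5: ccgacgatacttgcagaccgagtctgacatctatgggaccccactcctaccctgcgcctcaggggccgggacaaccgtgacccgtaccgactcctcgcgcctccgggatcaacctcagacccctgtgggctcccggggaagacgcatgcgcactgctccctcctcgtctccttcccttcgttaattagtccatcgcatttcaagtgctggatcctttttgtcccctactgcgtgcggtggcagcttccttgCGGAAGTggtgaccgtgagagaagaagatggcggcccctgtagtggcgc

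All values are regularized log2 values, in which the spread of weakly expressed genes has been shrunk, and the files give no read counts, so the sequencing depth is unknown. The median RPF value of a library lay between 6.84 and 7.12, and between 6.84 and 6.97 in the shEIF2B4 libraries, the lowest of the 3 lines. For total RNA the medians lay between 7.85 and 7.92. Of 12 markers of colorectal epithelium fixed as a check of the cell type, 7 were measured, with KRT18 the highest at 14.5 in RPFs. CDH1 was the lowest, at 5.09 in RPFs and 4.35 in total RNA, below the medians of all genes (6.99 and 7.89). KRT20, VIL1, CDX1, LGALS4 and CEACAM5 had no row in either table. Of 14 markers of immune, endothelial and fibroblast cells, CD68 alone was measured, at a mean of 6.08 in RPFs and 4.96 in total RNA.

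The targeted genes were examined first, since they check the labels. In total RNA, EIF2B1 in shEIF2B1 cells measured 8.19, 8.21, 8.25 and 8.38 in replicates 1 to 4 without DOX and 7.68, 7.49, 7.10 and 7.24 with DOX. In shCTRL cells it measured 8.43, 8.52, 8.59 and 8.66 without DOX and 8.42, 8.10, 8.40 and 8.44 with DOX. All 4 induced shEIF2B1 libraries thus lay below every other library, and the uninduced shEIF2B1 libraries lay between them and all but 1 of the shCTRL libraries, replicate 2 with DOX. The response, that is the change on DOX minus the same change in shCTRL with the replicate as a block, was -0.67 on the log2 scale (SE 0.15, 95% interval -0.99 to -0.35, lower in 4 of 4 replicates, limma adjusted p = 0.0263). It was the 10th most negative response of the 11947 genes, and 3.47% of all genes were called in that comparison, 1.13% as lower. The call was lost without replicate 3 (-0.58, adjusted p = 0.139) and without replicate 4 (-0.59, adjusted p = 0.242).

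EIF2B4 in shEIF2B4 cells measured 6.88, 7.20, 7.42 and 7.24 in total RNA without DOX and 6.64, 6.68, 6.47 and 6.66 with DOX. In shCTRL cells it measured 7.19, 7.41, 7.56 and 7.59 without DOX and 7.38, 7.24, 7.29 and 7.49 with DOX. The induced shEIF2B4 libraries did not overlap with any other group. The response was -0.49 (SE 0.14, 95% interval -0.77 to -0.20, lower in 4 of 4 replicates, limma adjusted p = 0.0634), the 51st most negative of 11947. In that comparison 5.40% of all genes were called. The adjusted p rose to 0.129 without the replicate block, to 0.104 with a block for each line and replicate, and to 0.169, 0.161 and 0.262 without replicates 2, 3 and 4.

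**Figure D1:**
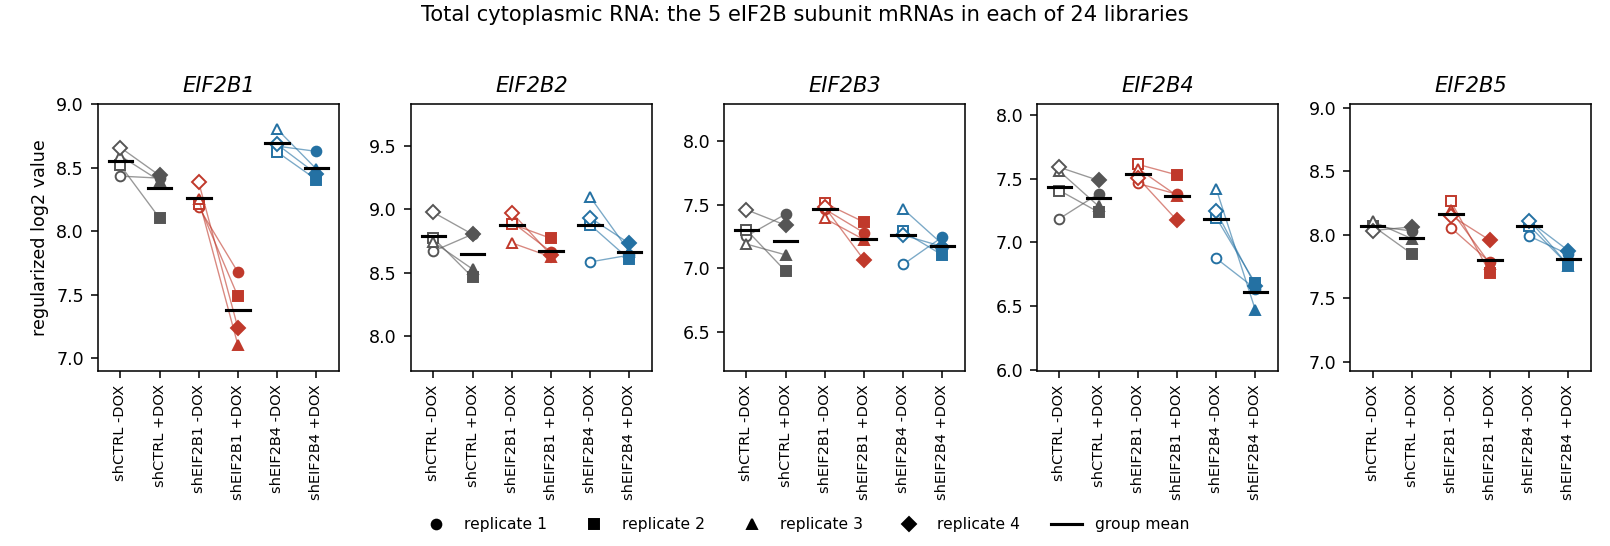
Total cytoplasmic RNA of the 5 subunits, as regularized log2 values (vertical axes, each spanning the same range), in the 3 lines without DOX (open symbols) and with DOX (filled symbols); symbols mark the replicate, thin lines join the libraries of a replicate and bars are group means. EIF2B1 in induced shEIF2B1 cells (7.10 to 7.68) and EIF2B4 in induced shEIF2B4 cells (6.47 to 6.68) sat apart from all other groups.

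RPFs followed the same order. EIF2B1 RPFs in shEIF2B1 cells measured 8.35, 8.26, 8.46 and 8.34 without DOX and 7.92, 7.48, 7.73 and 7.42 with DOX, against 8.79, 8.81, 8.91 and 8.68 and then 8.84, 8.36, 8.69 and 8.55 in shCTRL cells. The response was -0.53 (SE 0.13, 95% interval -0.80 to -0.25, lower in 4 of 4 replicates, limma adjusted p = 0.0109). In RPFs, however, 27.3% of all genes were called in response to shEIF2B1, and 15.3% of all genes were called as lower, and the response of EIF2B1 was the 856th most negative of 11145. The adjusted p was 0.603 without the replicate block and 0.109 without replicate 4, where the response was -0.44.

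EIF2B4 RPFs in shEIF2B4 cells measured 7.55, 7.78, 8.06 and 7.69 without DOX and 7.21, 6.78, 7.22 and 7.31 with DOX. In shCTRL cells the values were 7.78, 8.10, 8.41 and 8.47 without DOX and 8.18, 7.70, 8.03 and 8.17 with DOX. The response of -0.48 (95% interval -0.88 to -0.07, lower in 4 of 4 replicates) did not pass the threshold (limma adjusted p = 0.236, unadjusted p = 0.0241). In that comparison 2.75% of all genes were called. The change on DOX within the shEIF2B4 line, with no shCTRL change taken off, was -0.64 (adjusted p = 0.00389), in a comparison that called 12.0% of all genes as lower.

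**Figure D2:**
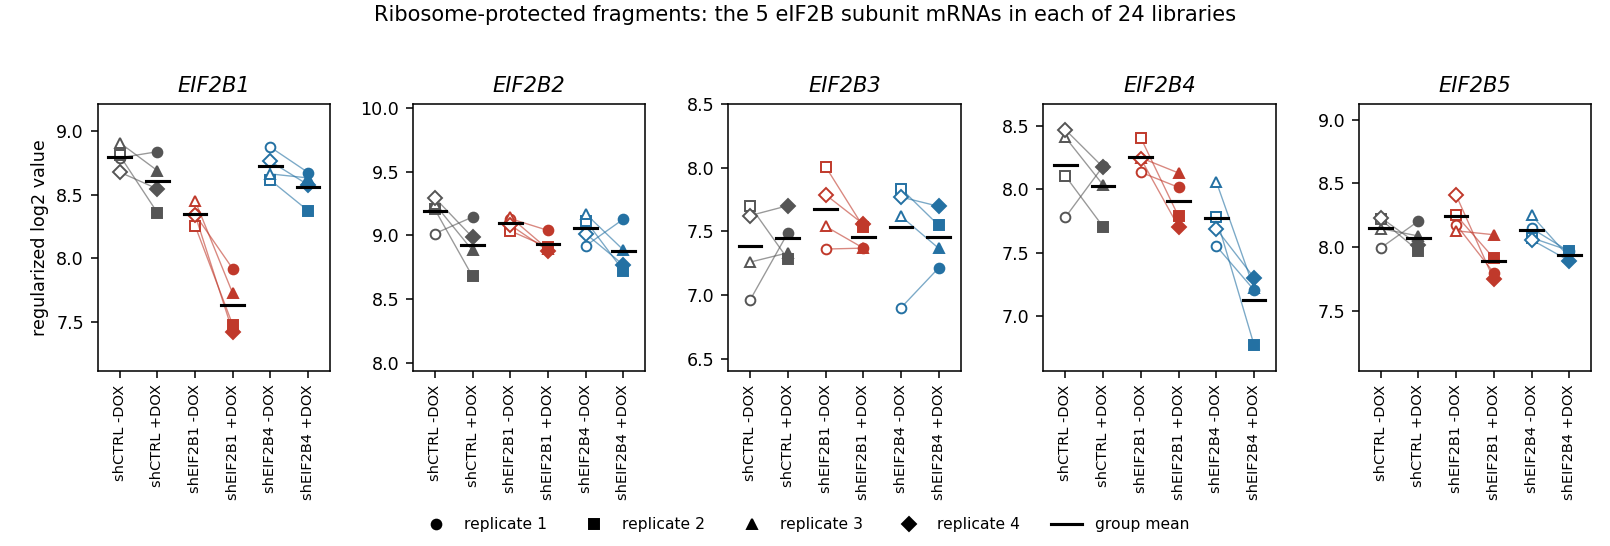
RPFs of the 5 subunits, as regularized log2 values, with groups, symbols and bars as in the plot of total RNA. EIF2B1 in induced shEIF2B1 cells lay at 7.42 to 7.92 and EIF2B4 in induced shEIF2B4 cells at 6.78 to 7.31, below all other groups of the same gene.

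The targeted mRNAs were lower than in shCTRL also in cells that received no DOX. In total RNA, uninduced shEIF2B1 cells held less EIF2B1 mRNA than uninduced shCTRL cells in 4 of 4 replicates (-0.29, SE 0.06, limma adjusted p = 0.0289), the 75th most negative difference of 11947, in a comparison that called 1.40% of all genes. This call was lost without the replicate block (adjusted p = 0.582), when all 24 lysates entered the fit (0.702), and without replicate 2 (-0.29, adjusted p = 0.127) or replicate 3 (-0.28, adjusted p = 0.121). In RPFs the difference was -0.45 (SE 0.08, adjusted p = 0.000194, or 0.346 without the block), the 395th most negative of 11145, but this comparison called 54.1% of all genes, so that 2 called subunits of 5 were no more than the background. The other called subunit was EIF2B3, the eIF2Bγ gene, which was higher in uninduced shEIF2B1 cells in 4 of 4 replicates (0.29, SE 0.09, adjusted p = 0.0101, or 0.378 without the block).

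EIF2B4 was likewise lower in uninduced shEIF2B4 cells, in 4 of 4 replicates on both measures. The difference was -0.25 in total RNA (SE 0.07, unadjusted p = 0.00436, limma adjusted p = 0.129), where 2.32% of all genes were called. It passed the threshold when replicate 3 was left out (-0.29, adjusted p = 0.059). In RPFs the difference was -0.42 (SE 0.13, adjusted p = 0.0824), where 13.9% of all genes were called and the median of all genes was -0.13. With each library centred on its median the RPF difference was -0.33 (adjusted p = 0.193). The adjusted p was 0.467 without the block, 0.108 without the lowest 25% of genes by mean, and 0.299, 0.131 and 0.353 without replicates 2, 3 and 4, with differences of -0.45, -0.44 and -0.30.

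As a share of the shCTRL level in the same week and DOX state, EIF2B1 total RNA stood at 81.7% without and 51.3% with induction of shEIF2B1, and its RPFs at 73.4% and 50.9%. EIF2B4 total RNA stood at 84.0% without and 60.0% with induction of shEIF2B4, and its RPFs at 74.8% and 53.8%, or 79.8% and 58.3% after centring. These percentages come from means of 4 log2 differences of shrunken values. The untargeted subunits stood between 91.0% and 122.2% of shCTRL without induction and between 88.1% and 111.4% with it, on both measures and in both lines.

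**Figure D3:**
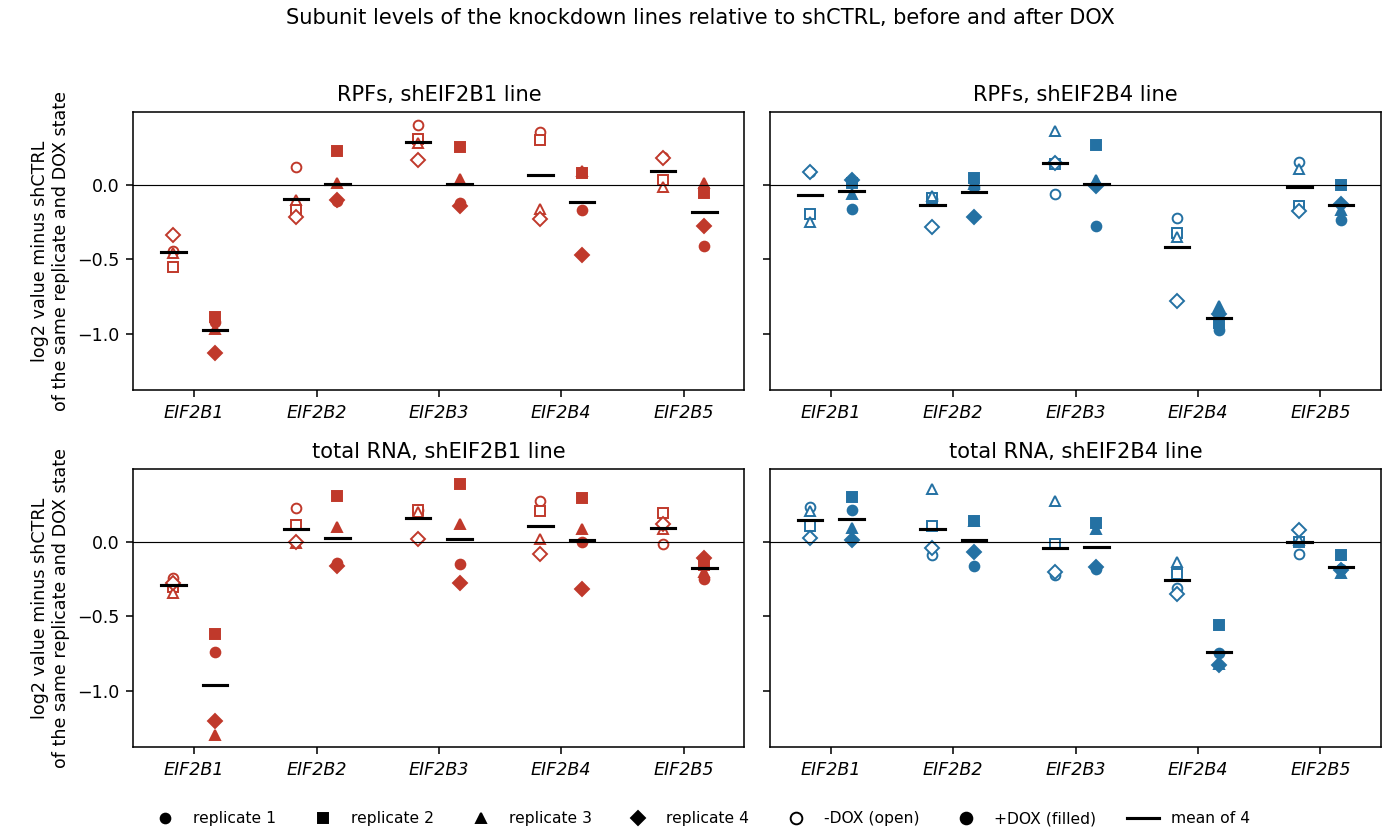
Log2 value of each subunit in the knockdown lines minus the shCTRL value of the same replicate and DOX state (vertical axes). RPFs and total RNA are shown without DOX (open) and with DOX (filled), and bars are means of 4 replicates. The targeted subunit lay below 0 in every replicate without DOX and lay further down with DOX. The means of the untargeted subunits lay between 88.1% and 122.2% of shCTRL. EIF2B5 total RNA lay below 0 in 4 of 4 replicates of both induced lines.

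None of the 4 untargeted subunits passed the threshold in response to either hairpin, in RPFs, where 27.3% (shEIF2B1) and 2.75% (shEIF2B4) of all genes were called, or in total RNA, where 3.47% and 5.40% were. With 4 genes, a count of 0 is not set apart from these shares. In response to shEIF2B1 their total RNA changes had a median of -0.12 against 0.00 for all genes, and 4 of 4 were below 0, as were 51.1% of all genes. At an unadjusted p under 0.05 there was 1 of 4, EIF2B5, against 15.3% of all genes. In response to shEIF2B4 their median was -0.03, with 2 of 4 below 0 and none at an unadjusted p under 0.05, against 17.2% of all genes. In RPFs the medians were -0.23 and -0.05 in response to shEIF2B1 and shEIF2B4, against -0.01 and -0.02 for all genes, and no untargeted subunit had an unadjusted p under 0.05, against 33.8% and 15.7% of all genes. The intervals still allowed sizeable changes, as follows.

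EIF2B5, the catalytic subunit, came closest to the threshold. In total RNA it measured 8.06, 8.26, 8.19 and 8.15 in uninduced and 7.78, 7.70, 7.77 and 7.96 in induced shEIF2B1 cells, and 7.99, 8.07, 8.12 and 8.11 in uninduced and 7.85, 7.76, 7.76 and 7.88 in induced shEIF2B4 cells. In shCTRL cells it measured 8.07, 8.07, 8.11 and 8.03 without DOX and 8.03, 7.85, 7.97 and 8.06 with DOX. The induced and uninduced ranges did not overlap in either knockdown line, but did in shCTRL. Such falls without overlap were also more common among all genes in the knockdown lines. They made up 14.0% in shEIF2B1, 12.0% in shEIF2B4 and 3.26% in shCTRL cells. The response of EIF2B5 was -0.27 to shEIF2B1 (95% interval -0.50 to -0.04, lower in 4 of 4 replicates, limma adjusted p = 0.233) and -0.17 to shEIF2B4 (-0.37 to 0.03, lower in 4 of 4 replicates, adjusted p = 0.371). Both responses share the shCTRL libraries. The difference between them was -0.10 (95% interval -0.30 to 0.09). In RPFs its responses were -0.28 (-0.57 to 0.02, adjusted p = 0.175) and -0.12 (-0.41 to 0.17, adjusted p = 0.71), with a direction shared by 3 of 4 and 2 of 4 replicates.

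EIF2B2, which encodes eIF2Bβ, had total RNA responses near 0 in both lines. Its total RNA ranged from 8.58 to 9.10 without DOX and from 8.46 to 8.80 with DOX over the 3 lines. The total RNA responses were -0.06 (95% interval -0.30 to 0.19) to shEIF2B1 and -0.07 (-0.35 to 0.20) to shEIF2B4, with adjusted p values of 0.873 and 0.827. Its RPF responses were 0.10 (-0.18 to 0.38) and 0.09 (-0.26 to 0.44), with adjusted p values of 0.632 and 0.832.

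EIF2B3, which encodes eIF2Bγ, the partner of the catalytic subunit, varied widely between weeks in RPFs: uninduced shCTRL cells gave 6.96, 7.70, 7.26 and 7.62 and uninduced shEIF2B4 cells 6.90, 7.84, 7.62 and 7.77, with replicate 1 lowest in both. Its RPF response to shEIF2B1 was -0.28 (95% interval -0.63 to 0.07, lower in 4 of 4 replicates, limma adjusted p = 0.246) and to shEIF2B4 -0.14 (-0.55 to 0.27, adjusted p = 0.759). In total RNA the responses were -0.14 (-0.42 to 0.14) and 0.01 (-0.29 to 0.30). With shEIF2B1 induced its RPFs stood at 100.5% of the shCTRL level, against 122.2% in uninduced shEIF2B1 cells.

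The remaining untargeted values concern each target in the line of the other hairpin. EIF2B4 measured 7.46, 7.61, 7.58 and 7.51 in total RNA of uninduced and 7.38, 7.53, 7.37 and 7.17 of induced shEIF2B1 cells, with overlapping ranges and a response of -0.09 (95% interval -0.38 to 0.19, adjusted p = 0.811). Its RPFs lay at 8.13 to 8.40 without DOX and 7.70 to 8.13 with DOX, with no overlap, as for 7.78% of all genes. The RPF response to shEIF2B1 was -0.18 (-0.57 to 0.21, adjusted p = 0.529). EIF2B1 measured 8.67, 8.62, 8.80 and 8.68 in total RNA of uninduced and 8.63, 8.41, 8.49 and 8.45 of induced shEIF2B4 cells, and the response was 0.01 (-0.21 to 0.23, adjusted p = 0.971). Its RPF response to shEIF2B4 was 0.02 (-0.27 to 0.32, adjusted p = 0.949).

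**Figure D4:**
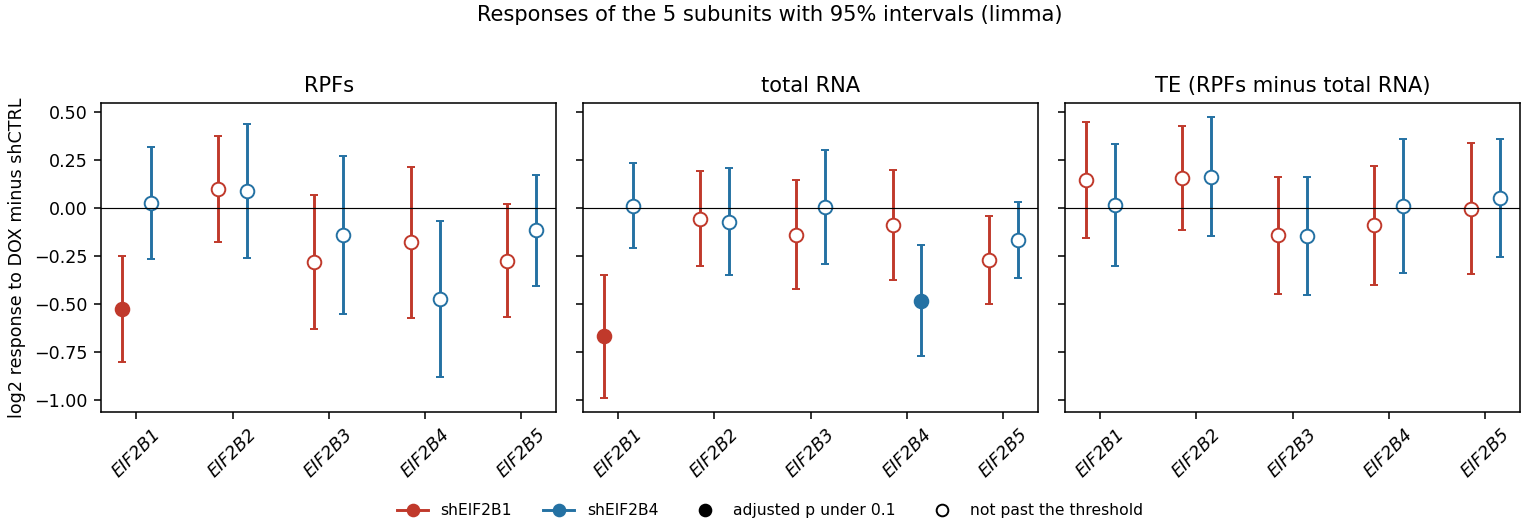
Log2 responses of the 5 subunits to shEIF2B1 and shEIF2B4, corrected for shCTRL, with 95% limma intervals, in RPFs, total RNA and TE; filled points passed an adjusted p under 0.1. The filled points were EIF2B1 for shEIF2B1 in RPFs (-0.53) and total RNA (-0.67), and EIF2B4 for shEIF2B4 in total RNA (-0.49).

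These counts depended on the correction for shCTRL. Most subunit mRNAs also had a lower mean with DOX in shCTRL cells. There, 5 of 5 subunits had a lower mean total RNA with DOX, from -0.21 for EIF2B1 to -0.09, and 4 of 5 had lower mean RPFs, from -0.27 for EIF2B2. None was called, against 9.85% of all genes in RPFs and 4.44% in total RNA. The smallest unadjusted limma p values were those of EIF2B2 in RPFs (0.0289) and EIF2B1 in total RNA (0.0187). Replicate 1 ran the other way in shCTRL, with RPFs of 5 of 5 subunits higher with DOX. Without replicate 1, the fall in shCTRL passed the threshold for EIF2B1, EIF2B2 and EIF2B4 in RPFs (-0.27, -0.40 and -0.36) and for EIF2B1 and EIF2B2 in total RNA (-0.28 and -0.23). In those fits 15.1% of all genes in RPFs and 10.4% in total RNA were called as lower.

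When DOX was compared with no DOX inside each line, with no shCTRL change taken off, more subunits were called. Standard errors were also smaller there, such as 0.11 against 0.19 for EIF2B4 RPFs in shEIF2B1 cells. The reason for the added calls was not tested. In shEIF2B1 cells, EIF2B1, EIF2B4 and EIF2B5 fell in RPFs (by 0.72, 0.35 and 0.35 on the log2 scale), where 26.7% of all genes were called as lower, and EIF2B1, EIF2B3 and EIF2B5 fell in total RNA (by 0.88, 0.23 and 0.36), where 16.8% of all genes were called as lower. In shEIF2B4 cells, EIF2B4 alone was called in RPFs, where 12.0% of all genes were called as lower, although 5 of 5 subunits had a lower mean. In total RNA 4 subunits, all but EIF2B3, were called as lower in shEIF2B4 cells, where 16.3% of all genes were. The total RNA changes there were -0.57 for EIF2B4, -0.26 for EIF2B5, -0.21 for EIF2B2 and -0.20 for EIF2B1. As for ranges, 3 of the 5 subunits lay lower with DOX without overlap in total RNA of shEIF2B1 cells, where 14.0% of all genes did, and 2 of 5 in shEIF2B4 cells, where 12.0% did. In shCTRL cells the count was 0 of 5, against 3.26% of all genes. In RPFs the counts were 3 of 5 in shEIF2B1 cells (EIF2B1, EIF2B4 and EIF2B5), 2 of 5 in shEIF2B4 cells (EIF2B4 and EIF2B5) and 0 of 5 in shCTRL cells, against 7.78%, 2.64% and 1.94% of all genes.

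The ratio of the targeted to each untargeted subunit, taken within a library, does not depend on the scaling of that library. Its change on DOX was compared between the knockdown line and shCTRL by a two-sided exact permutation test of 4 against 4, in 16 comparisons (4 partners, 2 lines and 2 measures). The target lost ground to its partner in all 16, by 0.24 to 0.63 more than in shCTRL on the log2 scale, and in all 16 the ratio fell in 4 of 4 replicates of the knockdown line. A fall of the target alone lowers each of its ratios, so the direction does not show whether a partner changed. The 16 are not independent: the 4 ratios of a line and measure share the target values, and both lines share the shCTRL libraries. In 8 of 16 every knockdown replicate lay below every shCTRL replicate, for an exact permutation p = 0.0286, the smallest that this test can give, and an adjusted p of 0.0571 over the 16. In total RNA this held for 3 of 4 partners in each line, with EIF2B5 the exception in both: the ratio of EIF2B1 to EIF2B5 fell by 0.40 more than in shCTRL (exact permutation p = 0.143) and that of EIF2B4 to EIF2B5 by 0.32 more (exact permutation p = 0.0857). In RPFs it held for EIF2B2 alone in each line (by 0.63 and 0.56, exact permutation p = 0.0286 each). Without replicate 1 the ranges were apart in 13 of 16. This test takes no account of the weeks that the lines share. With the weeks kept as pairs the target lost more ground than in shCTRL in 4 of 4 replicates in 11 of 16 comparisons, and none of the 16 passed: a two-sided exact permutation of the signs of 4 pairs can give no p below 0.125, and the values were 0.125 to 0.25.

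The responses to the hairpins were then compared with each other, which removes the shCTRL change. In total RNA, EIF2B1 differed by -0.68 (SE 0.14, 95% interval -0.97 to -0.40, lower in 4 of 4 replicates, limma adjusted p = 0.0634), the 9th most negative difference of 11947. That comparison called 12 genes in either direction (0.1004% of all genes), and 5 of them (0.0419% of all genes) as lower. The adjusted p was 0.165 without the replicate block and 0.181, 0.173, 0.236 and 0.327 without replicates 1 to 4. EIF2B4 differed by 0.39 (SE 0.14, unadjusted p = 0.00934, adjusted p = 0.296). In RPFs the differences were -0.55 for EIF2B1 (unadjusted p = 0.000292, adjusted p = 0.407) and 0.29 for EIF2B4 (adjusted p = 0.756), and 0.00897% of all genes were called. The differences for EIF2B2, EIF2B3 and EIF2B5 lay between -0.16 and 0.01 on both measures, with adjusted p values of 0.644 to 0.99.

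Translational efficiency (log2 TE), the log2 RPF value of a lysate less its log2 total RNA value, was called for none of the 5 subunits in any of the 6 comparisons. The TE response of EIF2B1 to shEIF2B1 was 0.14 (95% interval -0.16 to 0.45) and that of EIF2B4 to shEIF2B4 was 0.01 (-0.34 to 0.36), and no subunit had an unadjusted p under 0.05 in response to either hairpin. The shEIF2B1 response called 7.10% of all genes, the shEIF2B4 response 0.0923%, the difference between the hairpins 0.00% and the change in shCTRL 0.388%. The difference between the hairpins had 665 genes at an unadjusted p under 0.05, none of them a subunit. The TE responses to shEIF2B1 and shEIF2B4 lay close together for the subunits that neither hairpin targets, in comparisons that share the shCTRL libraries. They were 0.16 and 0.16 for EIF2B2, -0.14 and -0.15 for EIF2B3, and -0.01 and 0.05 for EIF2B5. The values of the targeted subunits were 0.14 and 0.01 for EIF2B1 and -0.09 and 0.01 for EIF2B4, and neither difference was called. The differences were 0.13 (95% interval -0.19 to 0.45) for EIF2B1 and -0.10 (-0.43 to 0.23) for EIF2B4. These intervals overlapped widely with that of the untargeted EIF2B5 (-0.06, -0.38 to 0.27), so targeted and untargeted subunits were not set apart. Without DOX, TE differences between the knockdown lines and shCTRL ran from -0.22 to 0.19, in comparisons that called 42.6% of all genes for shEIF2B1 and 0.554% for shEIF2B4. With each library centred on its median, EIF2B2 and EIF2B1 were called as lower in uninduced shEIF2B1 cells (-0.23 and -0.21, adjusted p = 0.056 and 0.0735). A count of 2 of 5 is not set apart from the 42.6% of all genes called there without centring.

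Levels were compared between subunits only in RPFs, per kilobase of coding sequence (CDS). In uninduced shCTRL cells the log2 RPF level per CDS kb was 9.12 ± 0.12 for EIF2B2, 8.93 ± 0.10 for EIF2B1, 7.54 ± 0.32 for EIF2B4, 7.08 ± 0.34 for EIF2B3 and 7.03 ± 0.11 for EIF2B5 (SD, n = 4). EIF2B2 and EIF2B1 overlapped, EIF2B1 exceeded EIF2B4 by 1.39 without overlap, and EIF2B4, EIF2B3 and EIF2B5 overlapped with their neighbours. With shEIF2B1 induced, the gap from EIF2B2 to EIF2B1 was 1.09 ± 0.17 without overlap. It was 0.55 ± 0.04, also without overlap, in uninduced shEIF2B1 cells and 0.11 ± 0.10 in induced shCTRL cells. EIF2B1 remained above EIF2B4 by 0.51 in induced shEIF2B1 cells. With shEIF2B4 induced, EIF2B4 stood last, where it had held the third place in uninduced shCTRL cells and overlapped with both EIF2B3 and EIF2B5 in uninduced shEIF2B4 cells (7.12 ± 0.21). It lay at 6.48 ± 0.24, below EIF2B5 in 4 of 4 replicates and without overlap. Thus depleted eIF2Bα kept more RPFs per coding length than eIF2Bγ, eIF2Bδ or eIF2Bε, while depleted eIF2Bδ had the fewest of the complex. These levels depend on the amount of each mRNA as well as on the ribosomes that each mRNA carries. They do not rank the subunits by ribosomes per mRNA. The codon counts come from the v29 annotation, in which 1 of the 5 transcripts has the version named in the files.

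**Figure D5:**
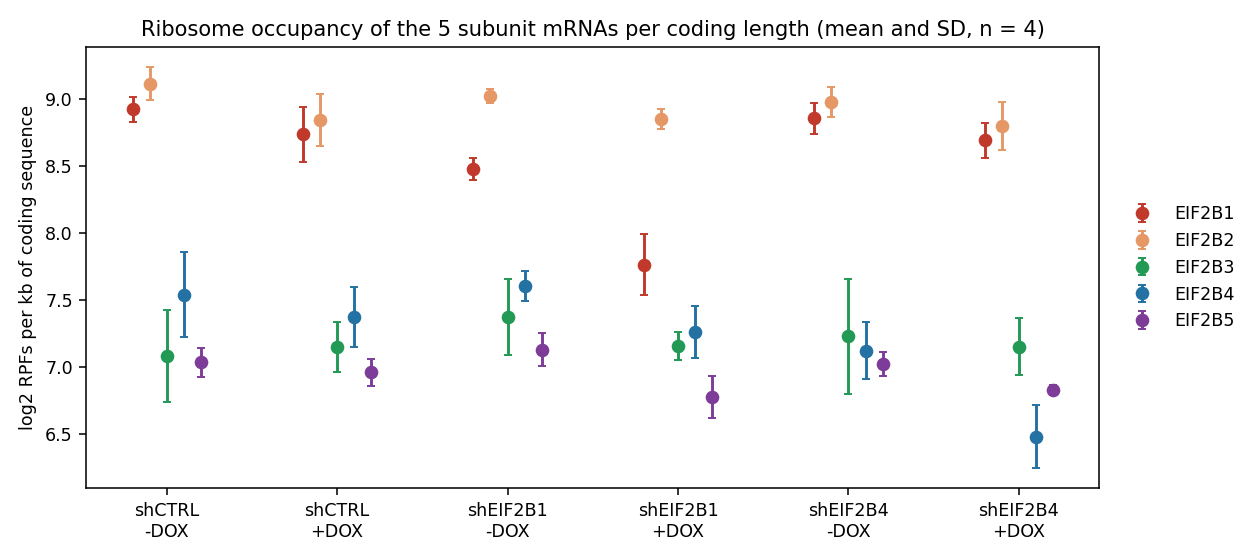
Log2 RPFs per kilobase of coding sequence (vertical axis) of the 5 subunits in the 6 line and DOX groups; points are means and bars SD of 4 replicates. EIF2B2 and EIF2B1 lay more than 1 log2 unit above the others in shCTRL cells, EIF2B1 came down to 7.76 in induced shEIF2B1 cells, and EIF2B4 to 6.48 in induced shEIF2B4 cells.

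Genes that work with eIF2B were examined from fixed lists. Among 13 genes of eIF2 and the ternary complex, 4 fell and 1 rose in RPFs in response to shEIF2B1 (median -0.28, against -0.01 for all genes), where 15.3% of all genes were called as lower and 12.0% as higher, and none passed in response to shEIF2B4 (median -0.13). EIF2S1, which encodes eIF2α, fell by 0.88 in RPFs (SE 0.17, limma adjusted p = 0.00293, or 0.621 without the block). EIF2S2, which encodes eIF2β, fell by 0.46 (SE 0.14, adjusted p = 0.0296), and this call was lost without the block (0.647), with all 24 lysates in the fit (0.113), and without replicate 1 (-0.40, 0.146) or 4 (-0.46, 0.107). The other genes that fell were EIF1AX, the scanning factor eIF1A (-0.65), and BZW2 (-0.57), and the gene that rose was MARS1, the cytoplasmic methionyl-tRNA synthetase (0.38); these 3 were named after their values were seen. EIF2S3, for eIF2γ, gave -0.32 (adjusted p = 0.117), which passed without replicate 2 (-0.43, 0.05). In response to shEIF2B4, EIF2S1, EIF2S2 and EIF2S3 gave -0.21, -0.09 and -0.20, none past the threshold. In total RNA no gene of the list fell and 1 rose, MARS1 (0.45), in response to shEIF2B1, where 3.47% of all genes were called. The homologues of the subunits, the methylthioribose-1-phosphate isomerase gene MRI1 and the GDP-mannose pyrophosphorylase genes GMPPA and GMPPB, gave RPF responses of 0.20, 0.30 and 0.35 to shEIF2B1 and 0.18, 0.15 and 0.28 to shEIF2B4, none past the threshold.

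Of 13 eIF2α kinases, phosphatase subunits and partners, 1 rose and 4 fell in RPFs in response to shEIF2B1. In that comparison 15.3% of all genes were called as lower and 12.0% as higher. In response to shEIF2B4, where 1.88% of all genes were called as higher, 1 rose. The gene that rose in both was PPP1R15A, the inducible regulatory subunit of the eIF2α phosphatase, by 1.08 (SE 0.13, limma adjusted p = 2.99e-05) and 1.41 (SE 0.15, adjusted p = 3.49e-05). In response to shEIF2B1, EIF2AK2, the double-stranded RNA kinase PKR, fell by 0.67 (adjusted p = 0.0176, or 0.621 without the block) and PPP1CC, a catalytic subunit of protein phosphatase 1, fell by 0.40 (adjusted p = 0.0249, lost without the block at 0.629, with all 24 lysates at 0.137, and without replicate 3 at -0.31 and 0.14 or replicate 4 at -0.36 and 0.15). The other 2 that fell, named after their values were seen, were PPP1CB, also a catalytic subunit of protein phosphatase 1, by 0.30, and the adaptor gene NCK1, by 0.48. The responses of EIF2AK2 and PPP1CC to shEIF2B4 were -0.39 (adjusted p = 0.37) and -0.29 (adjusted p = 0.456), and both passed without replicate 1 (-0.45 at 0.0783 and -0.41 at 0.0874). EIF2AK1, the heme-regulated kinase, gave -0.47 in response to shEIF2B4 (adjusted p = 0.121) and -0.01 in response to shEIF2B1 (adjusted p = 0.954). The former passed with a block for each line and replicate (0.0906), with all 24 lysates in the fit (0.0500) and without replicate 1 (-0.53, 0.0184). Of 28 ISR target genes, 18 rose and 1 fell in RPFs in response to shEIF2B1 (median 0.71), and 14 rose in response to shEIF2B4 (median 0.64), against 12.0% and 1.88% of all genes called as higher. TRIB3, a pseudokinase gene, rose by 2.00 and 1.85, DDIT3, which encodes the transcription factor CHOP, by 1.49 and 1.73, and the transcription factor gene ATF5 by 1.62 and 1.65 (limma adjusted p of 1.97e-08 to 0.000396). Without the block the call of TRIB3 in response to shEIF2B4 was lost (adjusted p = 0.369). In RPFs the targeted subunits showed smaller log2 changes than TRIB3, DDIT3 and ATF5, which were named for their small adjusted p in these same data. In total RNA the median response of the ISR targets was 0.44 to shEIF2B1 and 0.48 to shEIF2B4. The targets gave -0.67 (EIF2B1) and -0.49 (EIF2B4) there.

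The genes most like each subunit were found by Pearson's r over 24 libraries, after each replicate's mean was removed, with the subunits left out. In total RNA they were PA2G4 (r = 0.946), EIF6 (0.939) and SRSF1 (0.935) for EIF2B2, HNRNPF (0.923), CCT5 (0.922) and POLR1E (0.911) for EIF2B3, and SNRPA1 (0.927) and HNRNPA2B1 (0.924) for EIF2B5. For the targeted subunits they were ADORA1 (0.824), ATP6V0B (0.821) and ZDHHC18 (0.815) for EIF2B1 and DIABLO (0.904), CLNS1A (0.891) and BECN1 (0.877) for EIF2B4. In RPFs the highest were GFER (0.804) and NEK6 (0.747) for EIF2B1, ADRM1 (0.937), RACK1 (0.922) and GAPDH (0.917) for EIF2B2, RSL1D1 (0.913), SACM1L (0.902) and HSPD1 (0.901) for EIF2B3, EME1 (0.909), KBTBD4 (0.908) and TRAP1 (0.903) for EIF2B4, and ORC1 (0.884), DHX16 (0.87) and NSDHL (0.859) for EIF2B5. These values describe libraries that share line, DOX state and week, and EIF2B1 had the lowest leading r on both measures.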

How the data were processed

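RPFs and total cytoplasmic RNA of 24 lysates were analysed as deposited, with groups taken from the labels. The authors trimmed reads with cutadapt 1.18, quantified total RNA with bowtie2 and RSEM on protein-coding transcripts of GENCODE v38, kept the most abundant transcript per gene, counted RPFs of 28 to 33 nt on its CDS, and deposited regularized log2 values from DESeq2 in a table for each measure. No counts were used, so depth and counting error are unknown. Replicate 3 joins reads of 2 sequencing runs.

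Here limma 3.58.1 in R 4.3.3 was fitted to all genes (lmFit, then eBayes with trend) with replicate, shRNA, DOX and their product, as in the study's design, over the 16 lysates of a line and shCTRL. The contrast between the hairpins used all 24 lysates, and the shCTRL change and the uninduced comparisons used 8 each. Genes were called at a two-sided Benjamini-Hochberg adjusted p under 0.1 over all genes. Replicate numbers were used as a block because the labels and methods place each number in its own week. In the check, 52 of 60 same-numbered RPF pairs and 37 of 60 total RNA pairs correlated over 0.1 after group means were removed. Replicates share a cell line, and the block takes out the level of each week. The p-values therefore measure how far the differences between lines and DOX states varied from week to week.

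Levels were divided by CDS length, without the stop codon, from GENCODE v29. Total RNA per transcript length was not compared, since 1 of the 5 transcript versions matched. The named genes were the subunits, the eIF2 and homologue genes, the 3 genes with the smallest adjusted p in RPFs per hairpin in the other lists, and the 3 most alike genes, some of which are not reported here. The members and lists were chosen with earlier results of these data known. The procedure was tested on simulated data. Alternatives covered the block, trend, filter, centring, fit, shCTRL correction, threshold and each replicate left out.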

Additional observations from a re-analysis of the deposited data

Results flagged for a closer look

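Far-off samples were looked for in 90 sets of 4 replicates (5 subunits, 3 measures and 6 groups), and 2 were found. Chance alone flags about 1 in 20 of such sets, so 2 of 90 is no excess. EIF2B1 total RNA in induced shCTRL cells was 8.10 in replicate 2, against 8.40 to 8.44 in the other 3, so the gap took a share of 0.875 of the range. EIF2B2 RPFs in induced shEIF2B1 cells were 9.04 in replicate 1, against 8.88 to 8.91 in the others, a share of 0.834. The response of EIF2B1 in total RNA differed between the hairpins, by -0.68 (shEIF2B1 minus shEIF2B4, limma adjusted p = 0.0634). EIF2B1 is the gene that the shEIF2B1 hairpin targets.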

How the results depend on the processing

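Counts below are of the 5 subunits called. With no replicate block the count fell to 0 in the RPF response to shEIF2B1 (from 1), in RPFs of uninduced shEIF2B1 cells (from 2) and shEIF2B4 cells (from 1), in the total RNA response to shEIF2B4, in the total RNA difference between the hairpins and in total RNA of uninduced shEIF2B1 cells (each from 1), and it changed no other call of a subunit. Over all genes, calls without the block fell from 3038 to 50 and from 307 to 36 in the RPF responses, from 414 to 191 and from 645 to 349 in total RNA, from 6030 to 0 and from 1554 to 1 in uninduced RPFs, and from 1098 to 0 in shCTRL RPFs. Without the shCTRL correction shEIF2B1 gave 3 calls in RPFs and 3 in total RNA, and shEIF2B4 gave 1 and 4, with 5507, 4104, 2655 and 4112 genes called in all, in that order. The total RNA response to shEIF2B4 fell to 0 with a line-by-replicate block. At an adjusted p under 0.05 the count was 0 in the total RNA response to shEIF2B4, in the difference between the hairpins and in RPFs of uninduced shEIF2B4 cells. The last was also 0 with the lowest 25% of genes left out and with each library centred. Centring raised the TE count in uninduced shEIF2B1 cells to 2, and all 24 lysates in one fit lowered the total RNA count there to 0.

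With each replicate left out in turn the counts ran from 0 to 1 in the RPF response to shEIF2B1, both total RNA responses, RPFs of uninduced shEIF2B4 cells and total RNA of both uninduced lines, were 0 throughout in the total RNA difference, and ran from 0 to 3 for RPFs of shCTRL on DOX and from 0 to 2 for its total RNA. The ranges of targeted-to-untargeted ratios were apart in 8 to 13 of 16. With the weeks kept as pairs (a replicate block, chosen after seeing the data), the exact permutation p of all 8 ratios at 0.0286 became 0.125, the smallest that 4 pairs can give.

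Of 1044 values of single genes and ratios under an alternative, 928 kept their direction and their side of the threshold, 48 lost the call, 24 gained it and 44 changed sign. Signs turned mostly for values near 0. Without the shCTRL correction, RPF responses turned to -0.17 (EIF2B2), -0.11 (MRI1), 0.25 (EIF2AK1) and -0.024 (GMPPB) for shEIF2B1, and to -0.18 (EIF2B2), -0.16 (EIF2B1), -0.13 (MRI1), 0.040 (EIF2S2) and -0.093 (GMPPB) for shEIF2B4, total RNA responses to shEIF2B4 to -0.084 (EIF2B3) and -0.20 (EIF2B1), and the TE response of EIF2B4 to shEIF2B4 to -0.069. With centring, EIF2AK1 turned to 0.038 (RPFs, shEIF2B1), total RNA responses to shEIF2B4 to -0.016 (EIF2B3) and -0.011 (EIF2B1), and uninduced shEIF2B4 differences to 0.079 (EIF2B5) and 0.025 (EIF2B1) in RPFs and 0.0070 (EIF2B3) in total RNA. With replicates left out, ranges that crossed 0 in RPFs were -0.0014 to 0.21 (EIF2B2) and -0.081 to 0.060 (EIF2AK1) for shEIF2B1, -0.037 to 0.12 (EIF2B1) for shEIF2B4, -0.076 to 0.11 (EIF2B2, difference between the hairpins), -0.089 to 0.23 (EIF2B3, shCTRL on DOX), -0.030 to 0.16 (EIF2B4, uninduced shEIF2B1) and -0.072 to 0.038 (EIF2B5, uninduced shEIF2B4). In total RNA they were -0.14 to 0.046 (EIF2B2, shEIF2B1), -0.039 to 0.072 (EIF2B3) and -0.051 to 0.054 (EIF2B1) for shEIF2B4, -0.087 to 0.12 (EIF2B2, difference), and -0.14 to 0.022 (EIF2B3), -0.0072 to 0.14 (EIF2B2) and -0.023 to 0.029 (EIF2B5) for uninduced shEIF2B4. The TE response of EIF2B4 to shEIF2B4 ran from -0.12 to 0.12. The causes were not tested. Levels per 3 times the RefSeq protein length were not run, since no protein table was used here. The unknown depth and shrunken values limit how small a change of a subunit can be called.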
